A study of Mus musculus with 6 samples.

Results

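The matrix metalloproteinase (MMP) genes that sit beside Mmp13 on mouse chromosome 9 were followed in dental pulp of mice lacking Mmp13. The members are the 10 genes of this cluster, Mmp13, Mmp12, Mmp1b, Mmp3, Mmp1a, Mmp10, Mmp8, Mmp27, Mmp20 and Mmp7, found by gene symbol among the 53342 genes of the table. All 10 were found. RNA sequencing was carried out on pulp of 3 WT and 3 Mmp13-/- mice, both on the C57BL/6 strain and 3 months old, as independent biological samples. The knockout is global, so every cell of the animal carries it. The sources used here do not give which exons the allele removes, and the table holds 1 total per gene, so the exons that any remaining Mmp13 reads came from are not known. The tooth type differs between sources. The labels' protocols give molars for both genotypes (with RNA from a column kit), although only the 3 WT titles name a tooth, and the study's methods give incisors (with TRIzol). Samples carry the numbers 2, 4 and 5 in WT and 1, 2 and 6 in Mmp13-/-, and values are given in that order throughout.

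MMPs are secreted or membrane-bound zinc proteases that cut collagens and other proteins of the extracellular matrix. They are made as inactive proenzymes, are activated by removal of the propeptide, and are held in check by tissue inhibitors (TIMPs). The genes of the cluster arose by duplication and include the collagenases, which cut triple-helical fibrillar collagen (Mmp13, Mmp8, Mmp1a and Mmp1b), the stromelysins Mmp3 and Mmp10, macrophage elastase (Mmp12), matrilysin (Mmp7), enamelysin (Mmp20) and the less studied Mmp27. In teeth, Mmp13 is known from bone- and dentin-forming cells, Mmp8 from neutrophils and odontoblasts, and Mmp20 from the enamel-forming ameloblasts, where it processes enamel matrix proteins, and from odontoblasts.

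On the GRCm38 assembly (mm10) the 10 genes span 427 kb from the start of Mmp13 to the end of Mmp7. All lie on the plus strand except Mmp1b. Mmp13 (ENSMUSG00000050578) lies at chr9:7272514-7283331 and has 10 exons. Mmp8 (ENSMUSG00000005800) lies at chr9:7558456-7568485, 285.9 kb further on, and Mmp27 (ENSMUSG00000070323) at chr9:7571396-7581885, only 2.91 kb beyond the end of Mmp8. Mmp20 (ENSMUSG00000018620) is at chr9:7628231-7674979. The 3' end of Mmp12 overlaps Mmp1b on the opposite strand by 1261 bases, and the antisense gene AV064505 overlaps both Mmp20 and Mmp7. The strand setting of the counting is not given in the sources used here, so reads of overlapping genes cannot be told apart.

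Promoter sequences from RefSeq (GRCm38.p6, 250 bases before to 50 after each listed start) were found for all 10 members, in 12 windows, since Mmp7 and Mmp12 have more than 1 listed start. An AP-1 element, the binding sequence of Fos and Jun proteins, is the classical element of MMP promoters. Its letters TGANTCA, searched on both strands, were present in a listed promoter of 8 of the 10 members, against 7.81% of 32817 mouse promoters of the same length. No match was found for Mmp8 and Mmp27, nor in 1 listed window each of Mmp12 and Mmp7. Mmp20, whose RNA was also higher in Mmp13-/-, has a match. The matches are shown with 10 bases on either side, the element in capitals:
Mmp13, chr9:7272469-7272495, plus strand: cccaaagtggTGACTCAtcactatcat
Mmp12, chr9:7347320-7347346, plus strand: acatcaacagTGAGTCAgatagaggat
Mmp1b, chr9:7388103-7388129, minus strand: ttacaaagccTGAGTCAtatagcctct
Mmp3, chr9:7445766-7445792, plus strand: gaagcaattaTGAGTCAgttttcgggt
Mmp1a, chr9:7464058-7464084, plus strand: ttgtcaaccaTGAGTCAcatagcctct
Mmp10, chr9:7502269-7502295, plus strand: agcacccatgTGAGTCAtgcttagtga
Mmp20, chr9:7628126-7628152, plus strand: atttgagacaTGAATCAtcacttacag
Mmp7, chr9:7692017-7692043, plus strand: agtgtgcaaaTGAGTCAcctatttcca
All 8 elements lay between -95 and -29 of the listed start. The letters TATAAA, on either strand, were present in a listed promoter of 9 of 10 members, Mmp27 being the exception, against 13.6% of promoters. The Runx element AACCACA, searched on both strands, was found in Mmp13 at -119 to -113, in Mmp27 at -62 to -56 and in the downstream window of Mmp7, against 5.27% of promoters. The 150 bases before the listed start are given for Mmp13, the targeted gene, and for Mmp8 and Mmp27, the neighbouring pair whose RNA differed most in the other direction, with the letters of the AP-1 and Runx elements in capitals on whichever strand they were read:
Mmp13, chr9:7272364-7272513, plus strand: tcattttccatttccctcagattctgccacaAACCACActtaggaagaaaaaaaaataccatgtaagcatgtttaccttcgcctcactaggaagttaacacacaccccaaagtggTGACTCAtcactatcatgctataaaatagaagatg
Mmp8, chr9:7558279-7558428, plus strand: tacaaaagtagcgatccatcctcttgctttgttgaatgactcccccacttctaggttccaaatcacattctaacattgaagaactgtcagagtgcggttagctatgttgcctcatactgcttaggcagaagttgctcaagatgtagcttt
Mmp27, chr9:7571246-7571395, plus strand: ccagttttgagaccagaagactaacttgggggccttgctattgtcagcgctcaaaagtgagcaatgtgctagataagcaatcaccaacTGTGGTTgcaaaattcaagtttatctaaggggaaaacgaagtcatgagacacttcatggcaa
A match describes the letters of a window and not a bound site, and no binding was measured.

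The libraries held 28442936 to 29980236 estimated counts in WT and 21561420 to 26547121 in Mmp13-/-. In the Mmp13-/- libraries, reads were spread over genes that pulp is not known to use. The 1452 odorant and vomeronasal receptor genes received 17.8 to 20.8 CPM (counts relative to the library total) in WT, but 308, 356 and 1197 CPM in samples 1, 2 and 6 of Mmp13-/-. Sample 6 also stood apart in that its 10 most abundant genes took 53.7% of its counts, against 22.6 to 27.2% in the other 5. Pulp mesenchyme markers (Col1a2, Col3a1) and the odontoblast markers Dspp and Col1a1 were abundant in all 6 libraries, and so were skeletal muscle genes, whose summed normalized count was 670285 to 887519 in WT and 115428 to 288366 in Mmp13-/-. Library features that differ between genotypes cannot be told apart from genotype in this design, and each member is therefore given beside the count that its exon length and the receptor-gene rate of the library would yield (the background count).

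Calls required a change over 2-fold and a Benjamini-Hochberg adjusted p under 0.05 in the quasi-likelihood test of edgeR across all genes tested. By this rule 30.1% of the 24534 genes tested were called, 20.4% higher and 9.68% lower in Mmp13-/-. Of the 10 members, 7 passed the filter on low counts and 4 of these were called, 3 higher (Mmp8, Mmp27, Mmp20) and 1 lower (Mmp13). Mmp3, Mmp10 and Mmp12 were tested and not called, and Mmp1a, Mmp1b and Mmp7 had too few counts to be tested. The 6 tested members other than Mmp13 had a median log2 fold change of 1.18, against 0.10 over all genes tested. Values of the 2 genotypes did not overlap in 3 of the 7 tested members, Mmp13, Mmp8 and Mmp27, which is 42.9% of them, against 60.9% of all genes tested. With upper-quartile factors 5867 genes were higher and 1338 lower, and after correction of each library for GC content 4390 and 590 (20.3% in all, 17.9% higher and 2.4% lower), against 5006 and 2375 in the main test, and the median of all genes moved to 0.32 and 0.33. Without sample 6, 29.0% of genes were called (19.7% higher, 9.32% lower), and 4 members.

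**Figure D1:**
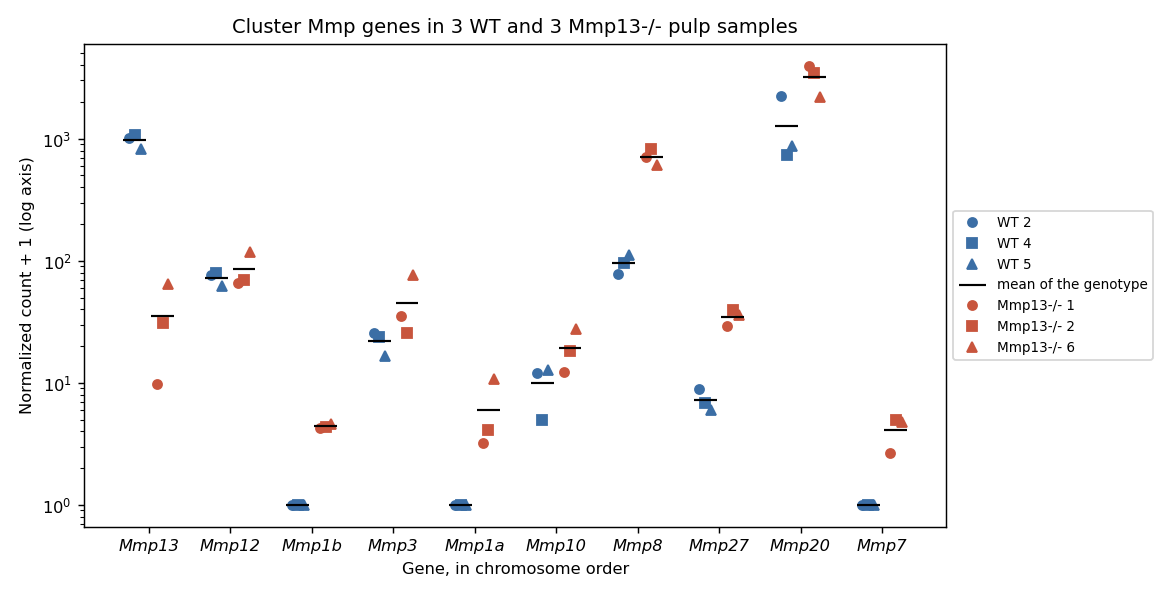
Normalized count plus 1 on a log axis for each of the 10 cluster genes in chromosome order, with 1 point per sample (blue WT, red Mmp13-/-) and a bar at the mean of each genotype. Mmp13 falls from a WT mean of 969 to 34.3, Mmp8 and Mmp27 rise without overlap, Mmp20 rises with overlap, and Mmp1b, Mmp1a and Mmp7 are at 0 in every WT sample.

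Mmp13, collagenase-3 and the targeted gene, was the only member called lower. Its normalized counts (counts scaled by the TMM library size to the mean library) were 1009 (sample 2), 1072 (4) and 826 (5) for WT, whereas the knockouts had 8.85 (sample 1), 30.1 (2) and 64.0 (6). Every knockout sample was far below every WT sample, and sample 6 retained the most. The means were 969 ± 128 and 34.3 ± 27.8 (SD, n = 3 each), a 31.1-fold lower level (log2 fold change -4.96, SE 0.46, edgeR adjusted p = 7.67e-05). With 1 sample left out the log2 fold change ran from -5.65, without sample 6, to -4.50. The remaining signal was 10.2, 32.9 and 40.4 estimated counts, which is 2.54, 7.02 and 3.15 times the background count of 4.02, 4.69 and 12.8. The level of the targeted gene thus matched the labelled genotype in all 6 libraries. In WT pulp, Mmp13 stood at 19.3, 26.5 and 20.8 per 1000 normalized counts of 6 osteoblast markers (Sp7, Runx2, Ibsp, Bglap, Bglap2, Alpl), and in Mmp13-/- at 0.222, 0.641 and 1.92. The summed level of those markers was 39759 to 52184 in WT and 33403 to 46943 in Mmp13-/-. Hypertrophic chondrocytes are also known to express Mmp13. The summed level of 5 chondrocyte markers (Col10a1, Col2a1, Acan, Sox9, Ihh) was 3017 to 3468 in WT and 1610 to 1999 in Mmp13-/-. In WT, Col2a1 had a mean of 2027 and Col10a1 of 249, so the sum does not stand for hypertrophic cells alone. Per 1000 counts of that list Mmp13 went from 335, 309 and 259 to 5.49, 15.0 and 38.1. The part of these cells in the level of Mmp13 was not tested. In bulk tissue, fewer cells of a type and less RNA per cell cannot be told apart.

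Mmp8, the neutrophil collagenase, rose most. WT pulp held 76.6, 95.3 and 111 normalized counts, whereas the knockouts held 703, 826 and 608, and the lowest knockout sample was well above the highest WT sample. The means of 94.4 ± 17.4 and 712 ± 109 (SD, n = 3 each) differed 7.55-fold (log2 fold change 2.92, SE 0.20, edgeR adjusted p = 2.08e-05). The estimated counts behind the knockout values, 809, 903 and 384, were 222, 212 and 33.0 times the background count. Mmp8 passed the test in all 15 alternative settings, with log2 fold changes of 2.63 to 3.12. Without sample 6 the log2 fold change was 3.02.

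Genes of neutrophils moved in the same libraries, in which 20.4% of all genes tested were called higher and 9.68% lower. Of 4 markers of early (azurophil) granules, 3 were called higher and none lower, with a median log2 fold change of 1.38, and Mpo, myeloperoxidase, had a log2 fold change of 1.23. Of 12 markers of later granules and mature neutrophils, 10 were called higher and none lower, with a median of 1.97, led in abundance by Ltf (lactoferrin, 1.24) and S100a9 (5.19). The summed normalized count of the early list was 692 to 1613 in WT and 1767 to 3897 in Mmp13-/-, and that of the late list 3877 to 7823 and 21509 to 51309. No marker of either list was at 0 in all samples. Per 1000 normalized counts of the late list, Mmp8 stood at 19.8, 13.4 and 14.2 in WT, against 17.7, 16.1 and 28.3 after loss of Mmp13, and these values overlapped (exact permutation test, two-sided p = 0.3, adjusted over 6 such ratios 0.36). Per 1000 counts of the early list the WT values 111, 64.3 and 69.1 lay below the knockout values 191, 212 and 344, without overlap (exact p = 0.1, the smallest that 3 against 3 samples allow, adjusted 0.15). The part of these cells in the level of Mmp8 was not tested.

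Mmp27, the gene directly beyond Mmp8, was scarce and rose with it. Normalized counts of 7.95, 5.89 and 5.03 in WT compared with 28.4, 38.5 and 34.9 in the knockouts, so that the genotypes did not overlap. The means of 6.29 ± 1.5 and 33.9 ± 5.11 (SD, n = 3 each) differed 5.5-fold (log2 fold change 2.46, SE 0.48, edgeR adjusted p = 0.00218). Depth limits this value more than that of Mmp8. The WT libraries held 5.04 to 8.41 estimated counts, and the knockout counts of 32.7, 42.1 and 22.0 were 9.85, 10.9 and 2.08 times the background count, the last of these in sample 6. With the background subtracted the log2 fold change was 2.23 (edgeR adjusted p = 0.00366). As a share of the Mmp8 count, Mmp27 came to 10.4, 6.18 and 4.51% in WT, and to 4.04, 4.66 and 5.74% in the knockouts, and this ratio overlapped between genotypes (exact permutation test, two-sided p = 0.3, adjusted over 4 ratios 0.4).

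Mmp20, enamelysin, had the highest level per kilobase of the cluster in Mmp13-/- pulp. The WT samples had 2250, 733 and 864 normalized counts, and the knockouts 3948, 3425 and 2180. WT sample 2 lay above Mmp13-/- sample 6, so the genotypes overlapped. The means were 1282 ± 840 and 3184 ± 908 (SD, n = 3 each), and the gene was called at 2.48-fold higher (log2 fold change 1.31, SE 0.39, edgeR adjusted p = 0.0182). The call was lost without WT sample 4 (0.99, adjusted p = 0.0751) or WT sample 5 (1.02, adjusted p = 0.0697), and after GC correction (0.88, adjusted p = 0.0721). Without WT sample 2 the log2 fold change was 1.93. The background count was at most 15.8 in any library, against 779 to 4546 estimated counts.

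Some ameloblast markers also differed between the WT samples. The summed normalized count of Amelx, Ambn, Enam, Klk4, Odam and Amtn, genes of enamel matrix and its maturation, was 123838 in WT sample 2, but 47582 and 40308 in the other WT samples. The knockouts had 139806, 135506 and 101635 in the order 1, 2 and 6. WT sample 2, which had the highest WT level of Mmp20, thus had the highest WT sum, in which Amelx and Ambn are the most abundant. Odam (8851, 9388 and 8818 in WT) and Klk4 (464, 536 and 581) were not highest in that sample. None of the 6 markers was called (1 higher without sample 6), beside 30.1% of all genes tested. The median log2 fold change of the 6 markers was 0.66 (Amelx 0.48, Ambn 0.95). Per 1000 counts of this list, Mmp20 stood at 18.2, 15.4 and 21.4 in WT, against 28.2, 25.3 and 21.4 in the knockouts, a difference of 1.36-fold in the mean (exact permutation test, two-sided p = 0.1, the smallest possible, adjusted 0.15). The part of enamel epithelium in the level of Mmp20 was not tested.

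**Figure D2:**
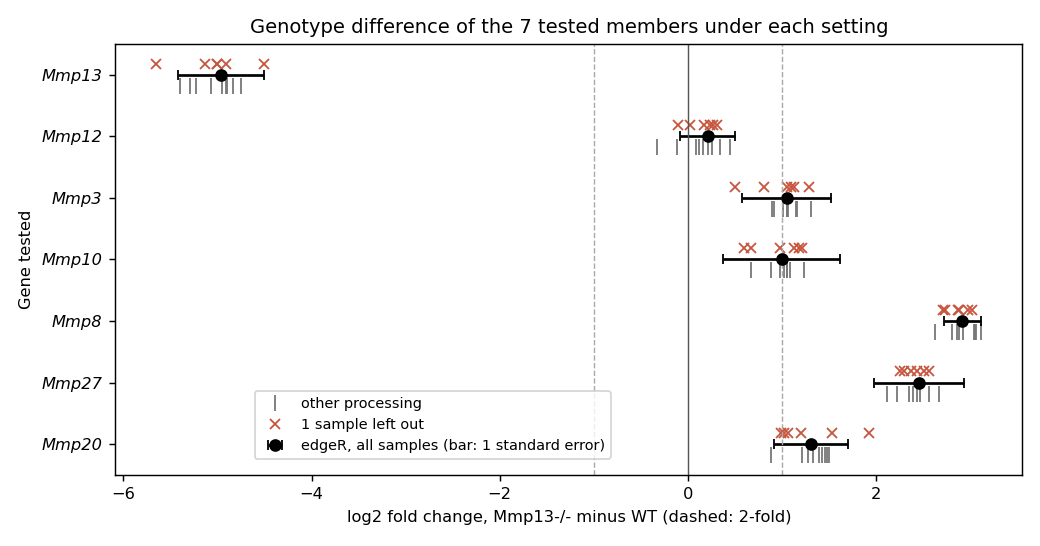
Log2 fold change of Mmp13-/- over WT for the 7 tested members, with the edgeR value and its standard error (black), the values under other processing (grey ticks) and with 1 sample left out (red crosses). Dashed lines mark 2-fold. Mmp13, Mmp8 and Mmp27 stay beyond 2-fold under every setting that tested them, whereas Mmp12 lies on both sides of 0.

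The stromelysins were not called. Mmp3, which cuts a broad range of matrix proteins and activates other proMMPs, was measured at 24.6, 22.6 and 15.5 normalized counts in WT, against 34.3, 24.4 and 74.8 in the knockouts. Samples overlapped narrowly, and sample 6 alone held the highest value. The means were 20.9 ± 4.76 and 44.5 ± 26.7 (SD, n = 3 each), with a log2 fold change of 1.05 (SE 0.47, edgeR adjusted p = 0.0882), without sample 6 it was 0.50 (adjusted p = 0.285), and without Mmp13-/- sample 2 it was 1.29 and called (adjusted p = 0.0465). Mmp10 had 11.0, 3.95 and 11.7 normalized counts in WT, against 11.2, 17.2 and 26.6 in the knockouts, again highest in sample 6. Its log2 fold change was 1.0 (SE 0.62, 95% interval -0.21 to 2.21, edgeR adjusted p = 0.2). Mmp3 and Mmp10 share runs of up to 104 bases, and 12.7% of the 25-base windows of Mmp3 and 13.3% of those of Mmp10 occur in the other, although no window of 150 bases, the read length, does. The split of reads between them is uncertain to that extent.

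Mmp12, macrophage elastase, showed no difference that the test could resolve. WT samples gave 75.2, 79.0 and 60.7 normalized counts, the knockouts 64.6, 69.2 and 118, and the first 2 knockout samples lay among the WT samples. The log2 fold change was 0.21 (SE 0.29, 95% interval -0.36 to 0.78, edgeR adjusted p = 0.572), and its sign turned without sample 6 (-0.10), with the background subtracted (-0.11) and after GC correction (-0.33). In sample 6 the background count was 34.7 of 74.6 estimated counts. Of 9 macrophage markers, 3 were called higher and 1 lower (median log2 fold change 0.33), beside 20.4% and 9.68% of all genes. After GC correction 6 were called higher and none lower (median 1.21), beside 17.9% and 2.4% of all genes. The summed level of the 9 markers was 7669 to 9609 in WT and 6704 to 8314 in Mmp13-/-. Per 1000 counts of that list Mmp12 was 7.54 to 9.81 in WT and 8.32 to 17.6 in Mmp13-/-, with overlap (exact permutation test, two-sided p = 0.4, adjusted 0.4).

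Mmp1a, Mmp1b and Mmp7 were at the limit of detection. Mmp1a and Mmp1b are the mouse counterparts of interstitial collagenase, Mmp1a being annotated as a polymorphic pseudogene in GRCm38, and Mmp7 is matrilysin, an epithelial protease. All 3 had 0 counts in every WT library, which allows up to 3 counts, or 0.1 to 0.105 CPM, per library. In the knockouts, in the order 1, 2 and 6, Mmp1a had 2.53, 3.43 and 6.09 estimated counts, Mmp1b 3.80, 3.62 and 2.27, and Mmp7 1.89, 4.37 and 2.35. Summed over the 3 libraries these were 0.739, 0.83 and 1.0 times the background count. The sums turn on sample 6, whose background is the highest, and without it they were 0.903 times for Mmp1a, 1.57 times for Mmp1b and 1.8 times for Mmp7. In fits without a filter, adjusted p was 0.0442, 0.0745 and 0.101 with edgeR, and 0.0715, 0.00215 and 0.0499 with limma on the deposited log2 values. Mmp1a and Mmp1b also share runs of up to 134 bases, so reads of 1 may be counted for the other.

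**Figure D3:**
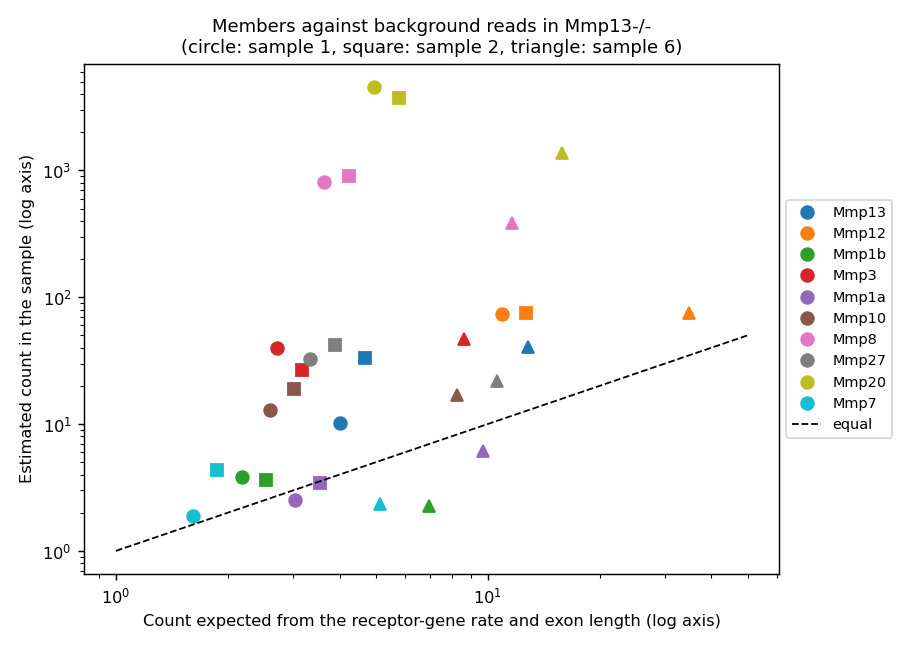
Estimated count of each member in the 3 Mmp13-/- samples (circle sample 1, square sample 2, triangle sample 6) against the count expected from its exon length and the receptor-gene rate, both on log axes, with a dashed line where they are equal. Mmp20 and Mmp8 lie far above the line, Mmp13 and Mmp27 nearer to it, and Mmp1a, Mmp1b and Mmp7 around it.

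Compared per kilobase of exon, the order of levels was different in the 2 genotypes. By WT means it ran Mmp20 (390 normalized counts per kb), Mmp13 (362), Mmp8 (38.9), Mmp3 (11.6), Mmp12 (9.9), Mmp10 (5.16) and Mmp27 (2.85), followed by the 3 genes at 0. Mmp20 was above Mmp13 only in WT sample 2 (684 against 378). In WT samples 4 and 5 Mmp13 was higher (401 against 223, and 309 against 263). Neighbours in this order overlapped between samples for Mmp20 and Mmp13, for Mmp3 and Mmp12, and for Mmp10 and Mmp27. In Mmp13-/- it ran Mmp20 (969), Mmp8 (294), Mmp3 (24.7), Mmp27 (15.4), Mmp13 (12.8), Mmp12 (11.6) and Mmp10 (10.6), and every pair of neighbours from Mmp3 to Mmp10 overlapped. Mmp7 (2.92), Mmp1a (2.47) and Mmp1b (2.35) came last and overlapped as well.

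The make-up of the cluster's RNA shifted from Mmp13 and Mmp20 to Mmp20 and Mmp8. Of the summed counts per kb, Mmp13 made up 33.5, 58 and 48.0% in WT, but 0.214, 0.775 and 2.31% in the knockouts. Mmp20 made up 60.7, 32.2 and 40.8% in WT, against 77.7, 71.8 and 63.9% in the knockouts, and Mmp8 went from 2.8, 5.68 and 7.14% to 18.7, 23.5 and 24.2%. None of these 3 shares overlapped between genotypes, and Mmp27 went from 0.353 ± 0.0334% to 1.18 ± 0.346% (SD, n = 3 each), also without overlap. For each of these shares the exact permutation test gave a two-sided p of 0.1, the smallest possible, and 0.143 after adjustment over the 10 members. Mmp3 and Mmp12 kept overlapping shares (exact p = 0.9 and 0.4). Shares sum to 100%, so the fall of the targeted Mmp13 alone raises those of the others. The tests of these shares cannot tell that from a rise. In absolute terms, WT samples summed to 1128, 692 and 644 counts per kb, the knockouts to 1546, 1452 and 1038. With only Mmp13 left out, Mmp20 had 684 of 750, 223 of 291 and 263 of 335 counts per kb in WT. In the knockouts it had 1201 of 1543, 1042 of 1441 and 663 of 1014, so its share was then not higher. With Mmp13 and Mmp20 left out the sums were 65.6, 67.7 and 72.0 for WT against 342, 399 and 351 for the knockouts, in which Mmp8 alone had 290, 341 and 251.

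**Figure D4:**
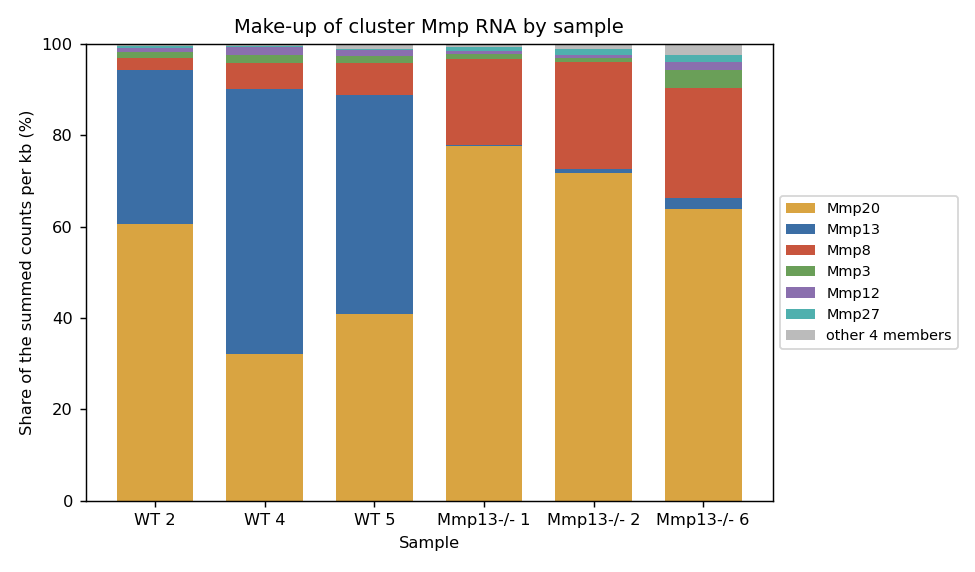
Stacked share (%) of each member in the summed counts per kb of the cluster, 1 bar per sample. Mmp13 fills 33.5 to 58% of the WT bars and 0.214 to 2.31% of the Mmp13-/- bars, and Mmp8 grows from 2.8 to 7.14% to 18.7 to 24.2%.

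Genes between and beyond the members were examined because they lie on the same stretch of chromosome as the targeted allele. From Dync2h1 to Yap1, the annotation holds 24 genes, 14 of which are not members. Of these 14, 8 were tested and 3 were called, all higher, beside 30.1% of all genes tested called and 20.4% called higher. They were Dync2h1 (a motor of ciliary transport, log2 fold change 1.45, SE 0.19, edgeR adjusted p = 0.000277), 88.1 kb before the start of Mmp13, Tmem123 (1.44, SE 0.21, adjusted p = 0.000513) and Birc2 (an inhibitor of apoptosis, 1.10, SE 0.24, adjusted p = 0.00356). After GC correction Birc2 had 0.81, under 2-fold, and its call was lost. Dcun1d5, which starts beside Dync2h1 on the other strand, had 0.42 (adjusted p = 0.0702), AV064505 1.01 (0.191) and Birc3 0.23 (0.164). Yap1, a co-activator of the Hippo pathway, had -0.63 (adjusted p = 0.00724) and Gm20416 -0.99 (0.00496), neither over 2-fold. Within this interval, genes on either side of the cluster were among those called higher. Its 2 most distant genes beyond Mmp7, Yap1 and Gm20416, had values below 0. Gm20416 lies within Yap1 on the other strand, so their reads cannot be told apart. The interval was ended at Yap1 by choice. Of the 15 listed flanking genes tested over a longer stretch, 14 had values above 0. A trend with distance was not tested.

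**Figure D5:**
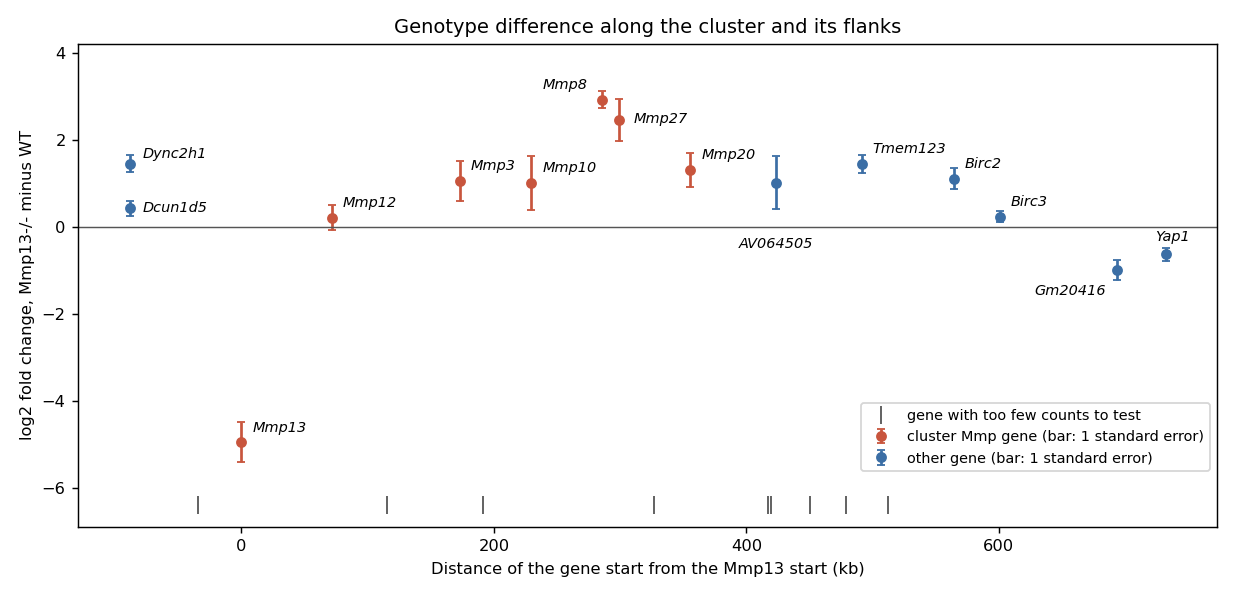
Log2 fold change of Mmp13-/- over WT (bar: 1 SE) for tested genes from Dync2h1 to Yap1 against the distance of the gene start from the start of Mmp13 in kb, members in red and other genes in blue, with ticks for genes with too few counts. Mmp13 is at -4.96, Mmp8 and Mmp27 are the highest points, and Dync2h1, Tmem123 and Birc2 lie above 1.

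Over a longer stretch, 15 of 16 listed flanking genes were found, each of which was tested. Of these, 10 were called higher and none lower, beside 20.4% higher over all genes, and their median log2 fold change was 1.17, close to the 1.18 of the members other than Mmp13. The flanking genes have a median transcript GC content of 43.0%, against 49.1% over all genes tested, and that of the members is 40.3 to 47.9%. After GC correction 4 of the 15 were called higher, beside 17.9% of all genes, and Mmp13, Mmp8 and Mmp27 were the members still called.

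The 13 Mmp genes elsewhere in the genome were all tested, and 4 were called lower and none higher, beside 9.68% lower over all genes. The median log2 fold change was -0.35. The most abundant were Mmp14, the membrane-type collagenase and activator of proMMP2 and proMMP13, which fell from 15366 to 6555 normalized counts (log2 fold change -1.23, SE 0.19, edgeR adjusted p = 0.000643), and gelatinase A, Mmp2, at 12066 and 10268 (-0.23, adjusted p = 0.355). After GC correction none of the 13 was called lower and 1, Mmp9, was called higher (1.37, edgeR adjusted p = 0.00117). Mmp9, gelatinase B, had 0.52 (adjusted p = 0.0738) without that correction and is named after its value was seen.

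In the main test the inhibitors called were all higher, whereas activators of proMMPs were called in both directions. Over all genes, 20.4% were called higher and 9.68% lower. Of 6 inhibitors, 2 were called higher and none lower (median 0.52), and without sample 6 only 1 was called higher. Timp3, an inhibitor bound to the matrix, rose from 8066 to 16695 normalized counts (1.05, SE 0.23, edgeR adjusted p = 0.00358), while Timp2 had -0.76 (adjusted p = 0.00862, under 2-fold). Of 9 genes that activate proMMPs or control that step, 4 were called higher and 2 lower (median 0.07), and without sample 6 none was called higher and 2 lower. Furin, which cleaves membrane-type proMMPs, fell (-1.79, SE 0.15, edgeR adjusted p = 5.21e-05). After GC correction Furin had -0.89, under 2-fold, and its call was lost. With that correction 3 of the 6 inhibitors and 3 of the 9 activators were called higher and none lower. Over all genes, 17.9% were then called higher and 2.4% lower.

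Of 12 regulators of Mmp transcription, among them AP-1 genes, 5 were called lower and none higher (median -0.72), beside 9.68% lower over all genes. Of the members with an AP-1 match, Mmp13 was called lower and Mmp20 higher. A link between AP-1 genes and the members was not tested. Fosl2, an AP-1 subunit, fell (-1.17, SE 0.21, edgeR adjusted p = 0.00152), and Runx2, the osteoblast factor that acts on the Mmp13 promoter, had -0.44 (adjusted p = 0.093). Of 4 clearance and collagen receptors, 3 were called lower (median -1.07, 2 without sample 6), including Lrp1, which takes up Mmp13, at -1.03 (SE 0.21, adjusted p = 0.00246) and Mrc2, a receptor for collagen fragments, at -1.11 (SE 0.19, adjusted p = 0.00108). After GC correction none of the 12 regulators and none of the 4 receptors was called in either direction, with a median of -0.15 for the regulators and near 0 for the receptors.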

How the data were processed

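Dental pulp RNA of 3 WT and 3 Mmp13-/- samples was sequenced on an Illumina HiSeq with paired reads of 150 bases, and the labels gave the genotype of each. The authors aligned and counted reads in Strand NGS 4.0, and the deposited table gives an estimated count per gene, fractional for 64.2% of values (tolerance 0.01). The deposited log2 values were made by the authors from these counts with size factors, a threshold and centring on each gene's median. The submitters' processing notes name mm10 and DESeq. Strand setting and aligner settings are not given in the sources used here.

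Rounded estimated counts entered edgeR 4.0.16 under R 4.3.3 (quasi-likelihood, TMM factors, filter on low counts by genotype, Benjamini-Hochberg adjustment, no covariates), after a test on simulated data. Limma 3.58.1 and DESeq2 1.42.0 were alternatives, with other factors and filters, GC correction (loess span 0.4), background subtraction and each sample left out. Exon lengths, GC content and positions came from GENCODE M21 (GRCm38), which matched 99.8% of genes, and promoters from RefSeq. Values per kilobase use the union of exons.

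Named genes are all 10 members, the 2 most abundant genes of each pathway and marker list, every flanking gene from Dync2h1 to Yap1, and, by correlation of log2 CPM (prior count 2), the 3 genes most like each member with a mean CPM of at least 1. A gene that this rule names is not reported here. The members and lists were chosen with earlier results of these data known. A floor of 3 counts covers counting error only. The edgeR SE is the absolute log2 fold change divided by the square root of the F statistic of the test, not an error fitted by the model. Intervals are at 95% by a normal approximation from this SE, and are narrower than the edgeR test itself would give.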

Additional observations from a re-analysis of the deposited data

How the results depend on the processing

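Mmp13, Mmp8 and Mmp27 were called under every alternative that tested them, and the number of members called was 3 to 5. Mmp20 kept its direction but was not called with DESeq2 (log2 fold change 1.28), GC correction (0.88) or limma (1.40), and ran from 0.99 to 1.93 with 1 sample left out. Mmp3 passed with at least 10 counts in every sample (1.16) and with total counts (1.07) and without Mmp13-/- sample 2 (1.29), and ran from 0.50 to 1.29 with 1 sample left out. Mmp12 turned under GC correction (-0.33) and background subtraction (-0.11), and ran from -0.10 to 0.31. With the longest transcript as length, the share of Mmp27 in WT was 0.406%, and that of Mmp12 2.03% in WT and 1.5% in Mmp13-/-. Over all genes, 7381 were called (5006 higher, 2375 lower), 11879 with DESeq2 (9297 higher, 2582 lower), 4666 with at least 10 counts, 14325 without a filter (11258 higher, 3067 lower), and 7146 to 8751 with 1 sample left out. Upper-quartile factors gave 5867 higher and 1338 lower and moved the median of all genes from 0.10 to 0.32, and GC correction gave 4390 and 590 with a median of 0.33. The cause of these changes was not tested. The filter of 10 counts left Mmp27 and Mmp10 untested. No paired analysis was made, since the sources used here give no pairing of samples between the genotypes.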

Other observations

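For the 5 members with a mean of at least 1 CPM, the genes whose log2 CPM followed theirs most closely over the 6 samples are given as a description. The 6 points share the split into genotypes and its library differences. For Mmp8 these were Zfp37, Glipr1 and Vps29 (Pearson r = 0.999, 0.9987 and 0.9985), and 1585 of 24534 genes had an r above 0.95. For Mmp13 they were Pcdhgc5, Fancc and Zfp469 (0.9985, 0.9978 and 0.9968), with 798 genes above 0.95. Mmp20 was followed by Gm10243, Ube4a and Ppid with 408 such genes, Mmp3 by Gm5815, CT030170.6 and Rps10-ps1 with 165, and Mmp12 by U90926, Gm10513 and Syne4 with 62.

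Other marker lists give the setting of these values. They are read beside the 20.4% of all genes tested that were called higher and the 9.68% called lower. All 5 osteoclast markers were called higher in Mmp13-/- (median log2 fold change 2.37), among them Ctsk, cathepsin K, and Acp5, and 4 of 5 erythroid markers were called higher (median 2.76). Of 6 odontoblast markers, 2 were called higher (Dspp among them, log2 fold change 1.13) and 2 lower (Col1a1 among them, -2.16), and of 6 osteoblast markers 1 was called higher. Of 5 chondrocyte markers, 1 was called higher and 2 lower, Col2a1 at -1.29 among them. After GC correction none was called lower (Col2a1 -0.07). In epithelium and pulp mesenchyme, 2 of 5 markers each were called lower and none higher, and in skeletal muscle 4 of 5 were called lower. After GC correction none was called lower in epithelium or pulp mesenchyme, and 2 of 5 in skeletal muscle, beside 2.4% lower over all genes.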
